A study of Homo sapiens with 40 samples.

Results

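The data described here are the log ratios of 9 receptors by which plasma cells and B cells home, adhere and leave a tissue, on 40 arrays of cells with an shRNA against caspase-10. The genes are the receptors for migration S1PR1, CXCR4 and CCR7, the integrin subunits ITGA4, ITGB1 and ITGB7, the adhesion molecules ICAM1 and ALCAM, and CD44. They were taken by symbol from the array's probe annotation, which lists 35 probes for them among 15246 probes and 4604 named genes. The probe numbers are 8 for CXCR4, 6 for CD44, 5 for ITGA4, 4 each for CCR7, ITGB7 and ICAM1, 2 for S1PR1, and 1 each for ALCAM and ITGB1. A gene value is the mean over its probes.

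The study knocked down CASP10, an initiator caspase, in multiple myeloma cell lines, with lymphoma lines as the control. Each 2-colour spotted array (lymphochip) set cells with the shRNA induced by 20 ng/ml doxycycline against cells of the same line, uninduced, on the same day. SKMM1 carried shCasp10-2 (12 arrays, 3 repeats), H929 carried shCasp10-2 (8 arrays, 2 repeats) or shCasp10-3 (4 arrays), and KMS12 carried shCasp10-2 (4 arrays) or shCasp10-3 (4 arrays). The lymphoma lines OCI-Ly7 and OCI-Ly19 carried shCasp10-2 on 2 arrays each, and on 4 further arrays induced SKMM1 with shCasp10-2 stood against induced SKMM1 with a control shRNA (shCtrl). All cells, uninduced ones included, were transduced with a retroviral vector and selected with puromycin, and the doxycycline was given to induced cells, so that its own effect is part of every ratio against uninduced cells.

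Plasma cells are held in the bone marrow by CXCR4, the receptor of CXCL12, and by integrin alpha4, which pairs with beta1 or beta7 and binds VCAM1, fibronectin or MAdCAM1. S1PR1 senses sphingosine 1-phosphate and guides lymphocytes out of tissues, and CCR7 guides them to lymph nodes along CCL19 and CCL21. Myeloma cells use the same receptors to bind stroma, where ICAM1 is the ligand of the integrin LFA-1, ALCAM binds CD6 or itself, and CD44 binds hyaluronan.

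A value above 0 is read as higher in induced cells, since the labels put induced RNA in Cy5 and the other RNA in Cy3; the direction of the deposited ratio is likely but not stated. On 12 of the 40 arrays over 10% of probes lay beyond a log2 ratio of 3, and these are called wide. Array medians ran between -2.15 and 0.36, and between -0.11 and 0.31 without the wide arrays. Between arrays of SKMM1 repeat 2 and repeat 3 the correlation over all probes was below 0 in all 9 pairs (r -0.44 to -0.16), so the direction of these repeats is not settled. CASP10 lay below 0 on 29 of 32 myeloma arrays, where 18.7% of all features had an estimate above 0. Its course means without the wide arrays were -0.36 and -0.16 in SKMM1 repeats 1 and 3. In H929 they were -0.35 and -0.08 in repeats 1 and 2 of shCasp10-2 and 0.03 with shCasp10-3. In KMS12 they were -0.52 with shCasp10-2 and -0.32 with shCasp10-3. With its wide array SKMM1 repeat 3 averaged 0.01. Without the wide arrays the CASP10 gene mean was -0.28 (SE 0.10, limma adjusted p = 0.17). In the fit of single probes 3 of its 6 probes fell (limma adjusted p 0.0048 to 0.034), 2 others were below 0, and 1 was 0.41 (adjusted p = 0.242) and rose by 1.19 in SKMM1 (adjusted p = 0.0441). CASP10 was 2.04 and 1.50 on the 2 arrays labelled OCI-Ly7, against the label of a knockdown, and ran between -0.24 and 0.12 on the OCI-Ly19 arrays. A ratio holds no level, so the labelled cell types could not be checked against their markers, and in bulk RNA fewer cells of a kind and less RNA per cell cannot be told apart.

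No receptor passed the test as a gene mean in the response of the 3 myeloma lines together, on days 2 to 4. The fit of time-course means over all arrays (8 courses) called 0 of 9 members, with a background of 0% of 9681 features and 542 features at an unadjusted p under 0.05. The fit of single arrays without the wide ones (16 arrays of 7 courses, course as a random block) called 0 of 9, with 1.71% of features called (166, of which 45 were higher). In that fit 5 members were above 0 and 4 below, with a median of 0.10, beside 0.01 over all features. With all arrays 1 was above 0 and 8 below, with a median of -0.24, beside -0.27 over all features. The series names biological repeats for H929 and SKMM1; for KMS12 the labels mark no separate cultures, and p-values then cover the spread among samples alone, which may be technical. The plot of all 40 arrays shows each receptor's values.

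**Figure D1:**
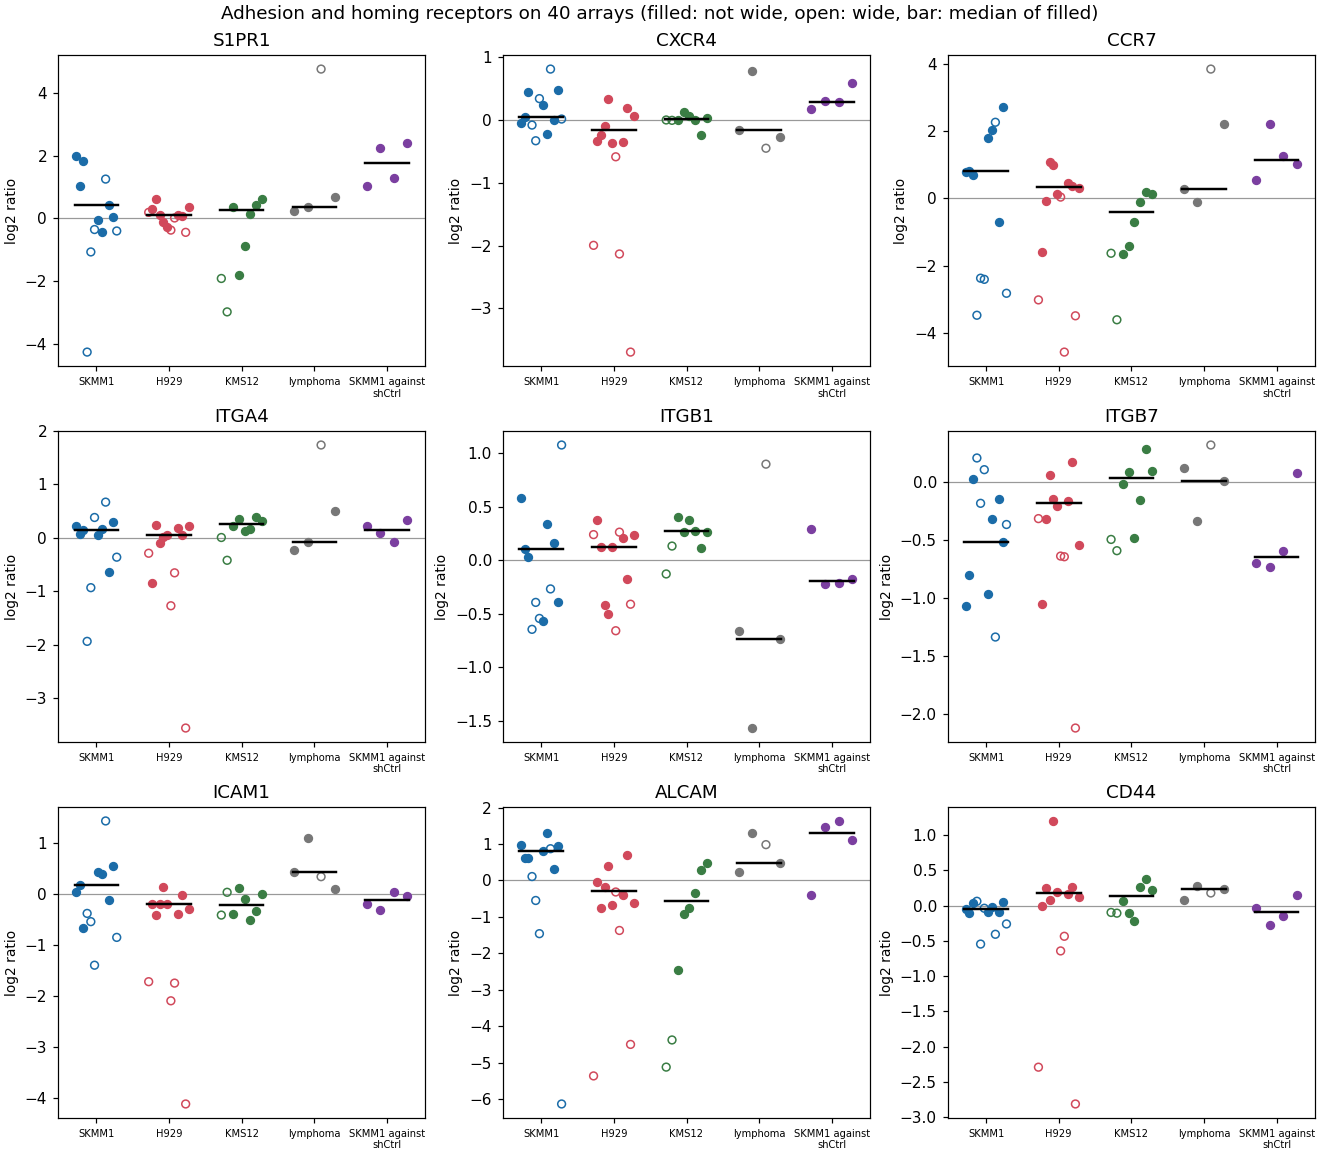
Log2 ratio (y axis, own scale in each panel) of each receptor on each array, by line and reference (x axis); filled points are arrays that are not wide, open points are wide arrays, and the bar is the median of the filled points. ITGB7 lies below 0 on 24 of 32 myeloma arrays, and ALCAM lies above 0 on the 7 SKMM1 arrays that are not wide. With all arrays 18.7% of all features had a myeloma estimate above 0, so most features leaned the same way as ITGB7.

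ITGB7, the beta subunit that joins integrin alpha4 to bind MAdCAM1 or alphaE to bind E-cadherin, was the member with the smallest p in the 3 myeloma lines together. On SKMM1 arrays against uninduced cells it ran between -1.34 and 0.20 with a median of -0.35 (12 arrays). On H929 arrays it ran between -2.12 and 0.17 with a median of -0.32 (12 arrays), and on KMS12 arrays between -0.60 and 0.28 with a median of -0.09 (8 arrays). Most arrays of SKMM1 and H929 were thus below 0, and those of KMS12 fell on both sides of it. With all arrays 29.6% of all features had an estimate above 0 in SKMM1 and 19.3% in H929. Most features thus leaned the same way as ITGB7 in these lines. The myeloma estimate without the wide arrays was -0.33 (SE 0.13, unadjusted p 0.0156, limma adjusted p = 0.171), and with all arrays -0.34 (SE 0.14, adjusted p = 0.679).

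In the myeloma lines together the 4 ITGB7 probes were below 0, to different extents. Fitted probe by probe over all 15246 probes without the wide arrays, probe 35043_1 fell by 0.46 on the log2 scale (SE 0.11, limma adjusted p = 0.0313). It was the 1 of 35 member probes called, with 2.33% of all probes called, so the count is near the share over all probes. Probe 17515_1 gave -0.42 (SE 0.22, adjusted p = 0.336), probe 28038_1 -0.24 (SE 0.18) and probe 25230_1 -0.21 (SE 0.17). Over the 21 myeloma arrays that are not wide, pairs of these probes correlated between 0.18 and 0.867. The probes did not share a sign in every set. In KMS12 probe 25230_1 was 0.25 and 28038_1 was 0.02, while 17515_1 was -0.28 and 35043_1 was -0.20. Against the control shRNA probe 17515_1 averaged 0.39 over days 2 to 4 and probe 25230_1 averaged -1.04. The single-probe fit was added after the gene means were seen. The call was lost when SKMM1 repeat 1, H929 repeat 1 of shCasp10-2, H929 shCasp10-3 or either KMS12 course was left out (highest adjusted p = 0.266), and it was also lost with the sign of SKMM1 repeat 3 turned, at -0.22 (adjusted p = 0.691).

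Probe 35043_1 also passed in SKMM1, whose arrays are part of the fit of the lines together, so this is not a separate result. The probe was -0.26 (SE 0.17) in H929 and -0.20 (SE 0.19) in KMS12, and passed in neither. In SKMM1 repeat 1 gave -1.47, -0.98 and -0.65 for days 2, 3 and 4, and repeat 3 gave -0.80 for day 2 and -0.76 for day 3. The SKMM1 estimate fell by 0.92 (SE 0.19, limma adjusted p = 0.0204, with 6.16% of probes called). On the wide day 4 array of repeat 3 it read -1.46, and on the wide arrays of repeat 2 it read 0.20, -0.21 and 0.06. Repeats 1 and 3 did not overlap with repeat 2. The call was lost without repeat 1 (-0.78, adjusted p = 0.0762) or repeat 3 (-1.03, adjusted p = 0.108), and with the sign of repeat 3 turned the estimate was -0.20 (adjusted p = 1.00).

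As a gene mean, ITGB7 in SKMM1 was -0.63 (SE 0.23, adjusted p = 0.0897), and it passed after each array was centred on its median, at -0.74 (limma adjusted p = 0.0407), where 8.15% of features passed. The gene mean was -0.32 (SE 0.20) in H929 and -0.05 (SE 0.23) in KMS12, and the difference of SKMM1 minus KMS12 was -0.58 (SE 0.32, adjusted p = 0.32). With the sign of SKMM1 repeat 3 turned, ITGB7 was -0.03 in SKMM1, -0.32 in H929 and -0.05 in KMS12, and SKMM1 minus KMS12 was 0.0199, so the order of the lines depends on the direction of that repeat.

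Against the control shRNA, ITGB7 in SKMM1 read -0.70, -0.73, -0.60 and 0.08 on days 1 to 4. Days 1 to 3 lay below 0 and day 4 did not. For days 2, 3 and 4 against uninduced cells it read -1.07, -0.80 and 0.02 in SKMM1 repeat 1, 0.20, -0.19 and 0.10 in repeat 2 and -0.97, -0.32 and -1.34 in repeat 3. Repeat 1 was highest on day 4 and repeat 3 lowest on it, with slopes of 0.55 and -0.19 per day. The labels do not say whether the control-shRNA set shares induced RNA with a repeat. In the lymphoma lines ITGB7 read 0.32 and 0.01 on the arrays labelled OCI-Ly7 and 0.12 and -0.34 on the OCI-Ly19 arrays. Its slope over days 2 to 4 in myeloma was 0.31 per day without the wide arrays (SE 0.11, unadjusted p 0.0184, adjusted p = 0.722).

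**Figure D2:**
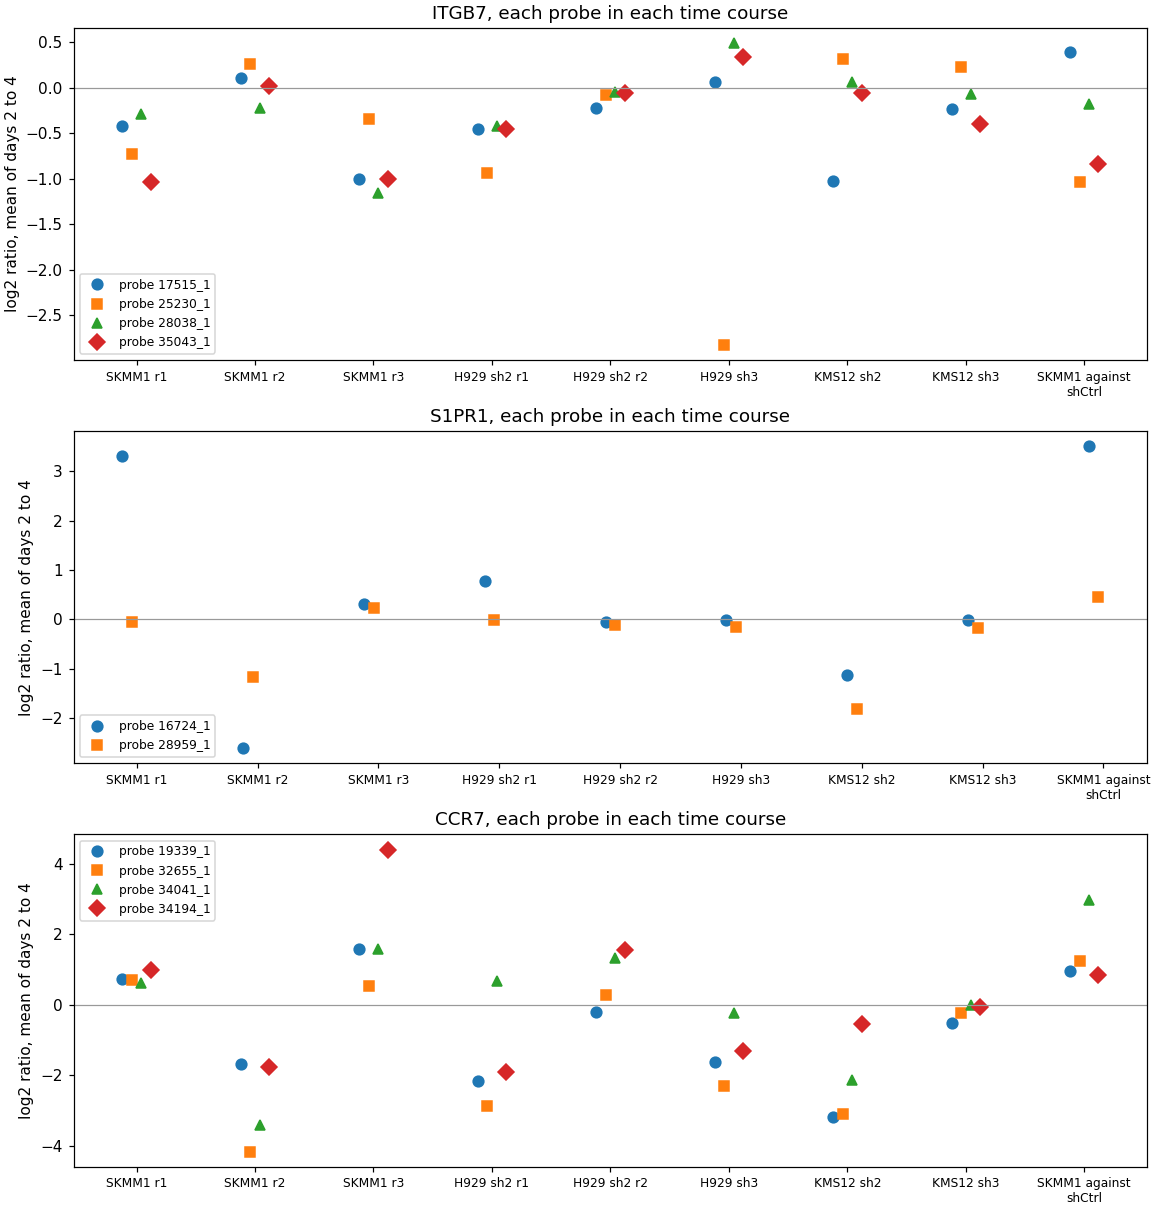
Mean log2 ratio over days 2 to 4 (y axis) of each probe of ITGB7, S1PR1 and CCR7 in each time course with all its arrays (x axis; r1 to r3 are repeats, sh2 and sh3 are shCasp10-2 and shCasp10-3). The ITGB7 probes are all below 0 in SKMM1 repeats 1 and 3, while a single S1PR1 probe, 16724_1, carries the values of 3.31 and 3.51 in SKMM1 repeat 1 and against shCtrl.

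ITGA4, the alpha4 subunit that ITGB7 and ITGB1 share, stayed within a narrow range without the wide arrays. It ran between -0.64 and 0.30 with a median of 0.16 in SKMM1 (7 arrays), between -0.85 and 0.24 with a median of 0.06 in H929 (8 arrays), and between 0.13 and 0.39 with a median of 0.27 in KMS12 (6 arrays). All 6 KMS12 arrays lay above 0, as did 18 of 21 myeloma arrays. The myeloma estimate was 0.11 (SE 0.093, limma adjusted p = 0.608). Over the 21 arrays its probe 26140_1 correlated between -0.483 and -0.36 with the other probes, whose pairs correlated between 0.596 and 0.815. That probe was 0.72 (SE 0.65) in SKMM1 and -0.37 (SE 0.58) in H929, and it is part of the gene mean. With arrays that have over 5% of probes beyond 3 also left out, ITGA4 was 0.16 and passed (adjusted p = 0.0265), as did ITGB7 at -0.28 (adjusted p = 0.033), and so did 26.8% of all features. That fit had 12 myeloma arrays of 6 courses, and its consensus correlation within courses was -0.09, against 0.28 in the fit above.

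ITGB1, the beta1 subunit that forms VLA-4 with alpha4, has 1 probe. Without the wide arrays it ran between -0.57 and 0.59 in SKMM1 with a median of 0.10, between -0.51 and 0.38 in H929 with a median of 0.12, and between 0.12 and 0.40 in KMS12 with a median of 0.27. The KMS12 arrays were all above 0, and the other lines lay on both sides. Its myeloma estimate was 0.13 (SE 0.11, adjusted p = 0.606). On days 3 and 4 ITGB1 lay below 0 on 3 of the 4 lymphoma arrays. It read -0.66 and -1.57 on the OCI-Ly19 arrays and -0.73 on the day 4 array labelled OCI-Ly7, and 0.90 on the wide day 3 array of that label.

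The difference of myeloma minus lymphoma for ITGB1 without the wide arrays was 1.13 (SE 0.26, unadjusted p 0.00057, limma adjusted p = 0.104), the furthest from 0 among the members. With all arrays it was 0.60 (SE 0.35, adjusted p = 0.639). The lymphoma estimate by itself was -0.96 (SE 0.23, adjusted p = 0.0551). These comparisons called 0 of 9 members, with 0.0103% of features called in the difference and 0.0516% in lymphoma without the wide arrays, and 0% in both with all arrays. The 3 lymphoma arrays left come from 2 courses. CASP10 lay above 0 on the arrays labelled OCI-Ly7, and averaged -0.06 on the OCI-Ly19 arrays. Its lymphoma estimate without the wide arrays was 0.58 (SE 0.24, limma adjusted p = 0.169), so a lower CASP10 was not seen in lymphoma.

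S1PR1 showed high values in SKMM1 that rested on 1 of its probes. In SKMM1 repeat 1 the gene mean was 1.99, 1.04 and 1.84 for days 2, 3 and 4. In repeat 3 it was -0.06, -0.42 and 1.26, the last of these from a wide array. On the wide arrays of repeat 2 it was -4.26, -1.07 and -0.35. The repeats thus disagreed in sign. The SKMM1 estimate without the wide arrays was 0.79 (SE 0.40, limma adjusted p = 0.209), and without repeat 1 it was -0.24.

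Probe 16724_1 of S1PR1 averaged 3.31 in SKMM1 repeat 1 and 3.51 against the control shRNA over days 2 to 4. Probe 28959_1 averaged -0.06 and 0.45 in the same sets. The 2 probes did not correlate over the 21 myeloma arrays that are not wide (r = -0.158). In KMS12 with shCasp10-2 both were below 0, at -1.13 and -1.81 with all arrays. Over the myeloma lines together the first probe gave 0.54 (SE 0.47) and the second -0.17 (SE 0.13), and neither passed (adjusted p = 0.595 and 0.527).

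CXCR4, which anchors plasma cells to CXCL12-producing stroma, had the estimate nearest to 0 of the 3 receptors for migration in the myeloma lines together. With the wide arrays left out it ran between -0.23 and 0.48 with a median of 0.05 in SKMM1 (7 arrays), between -0.36 and 0.34 with a median of -0.16 in H929 (8 arrays), and between -0.24 and 0.13 with a median of 0.02 in KMS12 (6 arrays). Each line lay on both sides of 0. The estimates were 0.09 (SE 0.18) in SKMM1, -0.19 (SE 0.16) in H929 and 0.00 (SE 0.18) in KMS12, and -0.04 (SE 0.10, adjusted p = 0.905) in the lines together. In H929 alone CXCR4 was further from 0 than S1PR1 at 0.15 and CCR7 at 0.12, and with all arrays it was -0.64 there (SE 0.24, unadjusted p 0.0306, adjusted p = 0.994). Of its 8 probes 4 averaged above 0 and 4 below, between -0.39 and 0.16 over courses, and 0 passed by themselves. Its SD over the 21 arrays, after centring, was 0.247, at percentile 13.4 of all features, whose median SD was 0.416.

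On the wide H929 arrays CXCR4 was -3.69 at day 1 and -1.99 at day 2 for shCasp10-2, and -0.59 at day 2 and -2.13 at day 3 for shCasp10-3. On the wide KMS12 arrays it was 0.00 at day 1 and -0.01 at day 2, where ALCAM was -5.13 and -4.38. CXCR4 was thus low on the wide arrays of H929 and at 0 on those of KMS12. Medians over all probes of these H929 arrays were -2.15 and -0.39 for shCasp10-2, and -0.27 and -0.29 for shCasp10-3. Those of the KMS12 arrays were -0.23 and -0.29. On the H929 arrays of shCasp10-2 46.3% and 25.0% of all probes lay below -3, so low values there are not particular to CXCR4. Against the control shRNA CXCR4 read 0.17, 0.30, 0.29 and 0.59 in SKMM1 on days 1 to 4, above 0 on each day.

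CCR7, the receptor of CCL19 and CCL21, differed in sign between lines and between repeats. For days 2, 3 and 4 of SKMM1 it was 0.78, 0.82 and 0.68 in repeat 1, 1.79, 2.02 and 2.26 in repeat 3, but -3.48, -2.38 and -2.41 in repeat 2, where each array of these days is wide. In KMS12 the shCasp10-2 arrays of days 1 to 4 gave -1.64, -3.61, -1.65 and -1.42. The shCasp10-3 arrays of KMS12, from day 2 to day 5, gave -0.70, -0.11, 0.20 and 0.14. On days 2 to 4 repeats 1 and 3 of SKMM1 lay above every KMS12 array, and repeat 2 did not. With days 1 and 5 included, the 7 SKMM1 arrays that are not wide ran between -0.69 and 2.71. These thus overlapped with the KMS12 arrays.

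Without the wide arrays the CCR7 estimate was 1.28 (SE 0.43, limma adjusted p = 0.0747) in SKMM1, 0.12 (SE 0.38) in H929 and -0.80 (SE 0.43) in KMS12. The difference of SKMM1 minus KMS12 was 2.08 (SE 0.61, unadjusted p 0.0028, adjusted p = 0.0949), and it was 1.23 (SE 1.58) with all arrays. With the sign of SKMM1 repeat 3 turned, CCR7 was -0.48 in SKMM1, SKMM1 minus H929 was -0.59 and SKMM1 minus KMS12 was 0.35 (adjusted p = 1.00 for each). Of its 4 probes, 34194_1 averaged 4.20 in SKMM1 repeat 3 and 0.99 in repeat 1, while the other 3 lay between 0.63 and 1.64 in these courses. In KMS12 with shCasp10-2 probe 32655_1 averaged -4.26 and 34194_1 averaged 0.25 on the arrays that are not wide. The probes thus shared the sign in SKMM1 but not the size, and in KMS12 they differed in sign.

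ALCAM (CD166), an immunoglobulin superfamily molecule that binds CD6 or a second ALCAM, has 1 probe and followed a line pattern like that of CCR7. For days 2, 3 and 4 of SKMM1 it was 0.98, 0.62 and 0.62 in repeat 1, 0.82, 1.29 and 0.87 in repeat 3, and 0.10, -0.55 and -1.46 in repeat 2. In H929 it ran between -5.37 and 0.69 with a median of -0.52 (12 arrays). The KMS12 arrays of days 1 to 4 gave -5.13, -4.38, -2.47 and -0.92 for shCasp10-2, and those of days 2 to 5 gave -0.77, -0.35, 0.27 and 0.48 for shCasp10-3. All 7 SKMM1 arrays that are not wide were above 0, while 6 of 8 such H929 arrays and 4 of 6 such KMS12 arrays were below.

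The ALCAM estimate without the wide arrays was 0.88 (SE 0.33, limma adjusted p = 0.0972) in SKMM1, -0.29 (SE 0.29) in H929 and -0.92 (SE 0.33, adjusted p = 0.553) in KMS12. The difference of SKMM1 minus KMS12 was 1.80 (SE 0.46, unadjusted p 0.00099, adjusted p = 0.0866) and that of SKMM1 minus H929 was 1.17 (SE 0.44, adjusted p = 0.30). With the sign of SKMM1 repeat 3 turned, ALCAM was -0.09 in SKMM1, SKMM1 minus H929 was 0.20 and SKMM1 minus KMS12 was 0.84 (adjusted p = 1.00 for each). In the test over the 3 lines at once the adjusted p was 0.195 for ALCAM and 0.221 for CCR7. The percent of features called was 4.98% in SKMM1, 0% in H929, 0.0103% in KMS12, 0.062% for SKMM1 minus KMS12, and 0% for SKMM1 minus H929, for H929 minus KMS12 and for the 3 lines at once, and 0 of 9 members were called in each. With all arrays these line comparisons called 0% of features.

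These counts rest on few courses, since SKMM1 has 2 courses with arrays that are not wide and KMS12 has 2. Without SKMM1 repeat 1, 1055 features passed in SKMM1 (10.9%) and 1018 in SKMM1 minus KMS12 (10.5%), ALCAM at 1.95 and CCR7 at 2.69 among these. Without SKMM1 repeat 3, 16 features passed in SKMM1 and 0 in SKMM1 minus KMS12. Without KMS12 with shCasp10-3, 80 passed in SKMM1 and 113 in SKMM1 minus KMS12 (1.17%), ALCAM at 2.58 among them. In each of these fits 1 line is a single course, assumed to vary like the others, and with repeat 3 turned 0 features passed in SKMM1.

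**Figure D3:**
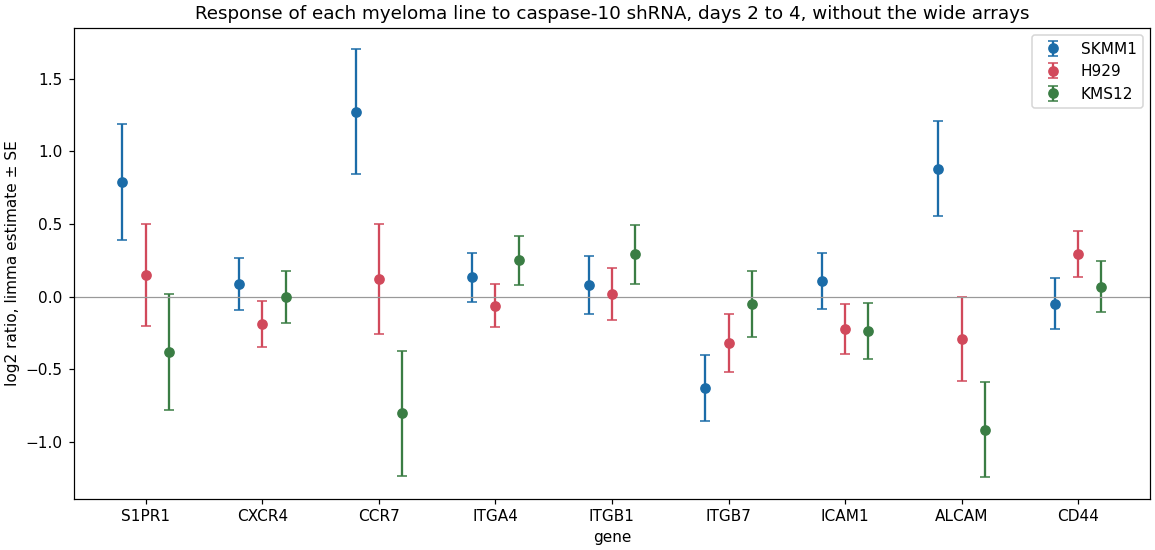
limma estimate of the log2 ratio (y axis) with its SE for each receptor (x axis) in SKMM1, H929 and KMS12, on days 2 to 4 without the wide arrays. CCR7 and ALCAM lie highest in SKMM1, at 1.28 and 0.88, and lowest in KMS12, at -0.80 and -0.92, and none of the 27 estimates has an adjusted p under 0.05; with the sign of SKMM1 repeat 3 turned, the SKMM1 values of CCR7 and ALCAM are -0.48 and -0.09.

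ICAM1, the ligand of LFA-1 on the partner cell, was on the low side in H929 and KMS12, but passed in neither. Its estimates without the wide arrays were -0.22 (SE 0.17) in H929 and -0.23 (SE 0.19, limma adjusted p = 0.84) in KMS12. Without the wide arrays it ran between -0.66 and 0.56 with a median of 0.19 in SKMM1 (7 arrays), between -0.41 and 0.14 with a median of -0.19 in H929 (8 arrays), and between -0.51 and 0.12 with a median of -0.22 in KMS12 (6 arrays). It was below 0 on 7 of 8 H929 arrays and 5 of 6 KMS12 arrays, and above 0 on 5 of 7 SKMM1 arrays. Of all features 41.2% had an estimate above 0 in H929, 33.8% in KMS12 and 60.5% in SKMM1, so most features leaned the same way. The myeloma estimate was -0.12 (SE 0.11, adjusted p = 0.635). In lymphoma it was 0.34 and 0.10 on the arrays labelled OCI-Ly7 and 0.44 and 1.11 on the OCI-Ly19 arrays, all 4 above 0, and the difference of myeloma minus lymphoma was -0.66 (SE 0.30, adjusted p = 0.282). Its probes disagreed, with estimates of -0.40 for probe 28750_1 (SE 0.14, adjusted p = 0.118) and 0.08 for probe 24268_1 (SE 0.13).

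CD44, the hyaluronan receptor, lay near 0 in SKMM1 and slightly above it in H929. With the wide arrays left out it ran between -0.10 and 0.04 with a median of -0.05 in SKMM1, between -0.00 and 1.20 with a median of 0.18 in H929, and between -0.21 and 0.37 with a median of 0.14 in KMS12. The 7 SKMM1 arrays formed the tightest set of any member in a line, with an SD of 0.058. This gene mean averages probes of opposite sign. In SKMM1 probe 25024_1 was 0.68 (SE 0.27) and 31594_1 0.45 (SE 0.17), while the others lay between -0.42 and -0.31, and none passed. Of the 8 H929 arrays 7 were above 0, and the estimate there was 0.29 (SE 0.16, adjusted p = 1.00). The gene mean hides probes that differ: in the lines together probe 25024_1 was 0.46 (SE 0.15, adjusted p = 0.0944) and probe 19271_1 was -0.17 (SE 0.078, adjusted p = 0.242), and pairs of the 6 probes correlated between -0.47 and 0.71.

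The 2 hairpins could be set against each other in H929 and KMS12. For the members shCasp10-3 minus shCasp10-2 lay between -0.66 for ICAM1 (SE 0.56) and 1.22 for ALCAM (SE 0.88) on course means of all arrays, and the SE of CCR7 was 1.69. No member was called, and neither was any feature, so the background was 0% with all arrays (172 at an unadjusted p under 0.05) and 0% without the wide arrays (584). The ALCAM courses behind this were -0.70 in H929 and -0.28 in KMS12 with shCasp10-3, and -2.05, -0.15 and -2.59 in H929 repeats 1 and 2 and KMS12 with shCasp10-2. The shCasp10-2 courses alone spanned the values of shCasp10-3, and leaving out the wide arrays brought the difference to 0.69 (SE 0.46).

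The slope over days 2 to 4 was above 0 for the 9 members with all arrays, as it was for 78.3% of all features. It lay between 0.05 per day for ITGB1 (SE 0.11) and 0.52 per day for S1PR1 (SE 0.22, limma adjusted p = 0.399), while the median over all features was 0.25. Without the wide arrays, 5 slopes were above 0 and 4 below, beside 57% of all features above 0. Called features were 0% in both fits (1066 and 602 at an unadjusted p under 0.05), and 0 of 9 members were called. By course the S1PR1 slope ran between -0.19 in H929 repeat 2 and 1.96 in SKMM1 repeat 2, whose arrays of days 2 to 4 are all wide.

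With induced control shRNA in place of uninduced cells, 3 receptors stood high in SKMM1. S1PR1 was 1.05, 2.24, 1.29 and 2.39 on days 1 to 4, CCR7 0.54, 2.21, 1.26 and 1.03, and ALCAM -0.40, 1.47, 1.63 and 1.11. S1PR1 and CCR7 were above 0 on each day, and ALCAM from day 2. ITGA4, ITGB1, ICAM1 and CD44 stayed between -0.32 and 0.33 on these days. This set holds 1 course, so its values have no test. CASP10 read -0.43, -0.74, -0.68 and -0.57 on the same arrays.

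**Figure D4:**
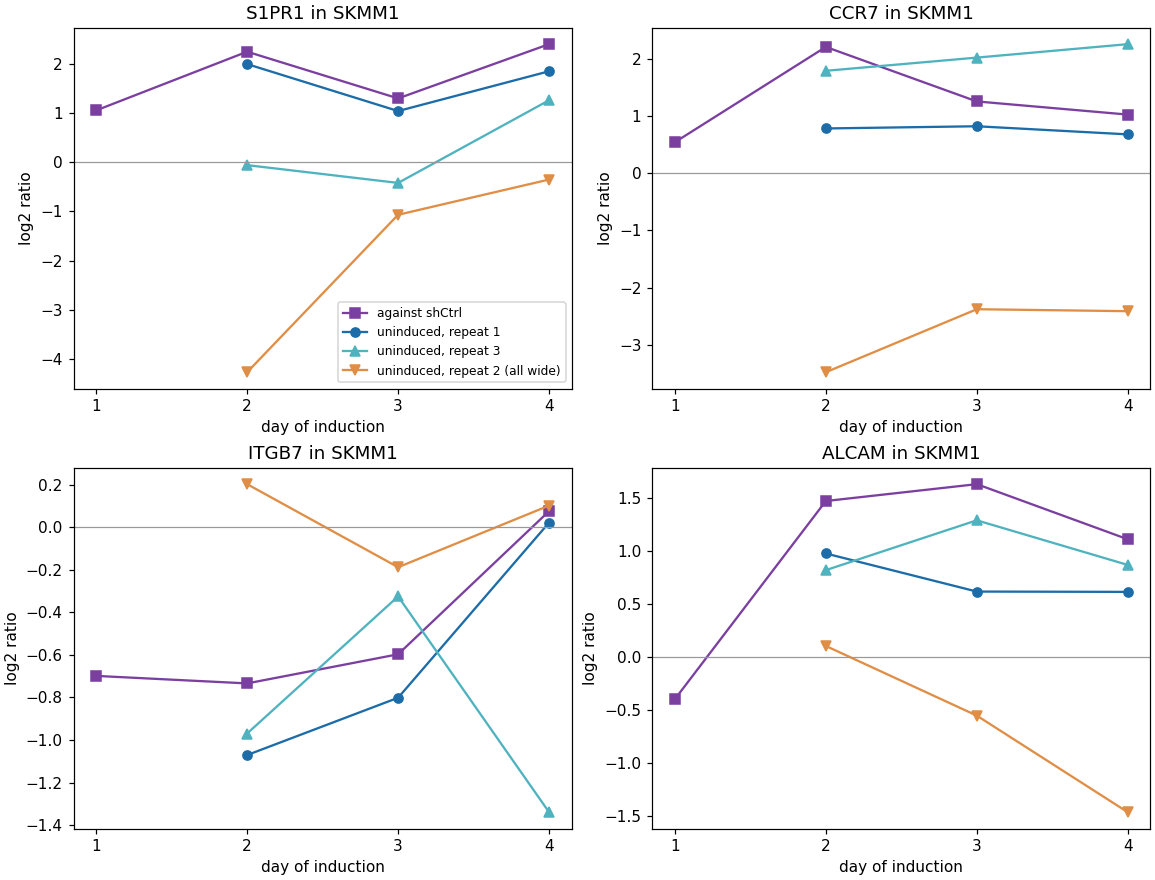
Log2 ratio (y axis) of S1PR1, CCR7, ITGB7 and ALCAM in SKMM1 by day of induction (x axis), in the course against shCtrl and in the 3 repeats against uninduced cells. CCR7 and ALCAM lie above 0 on days 2 to 4 in all courses but repeat 2, where CCR7 reads -3.48, -2.38 and -2.41.

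Other genes of homing and adhesion were looked at through lists, chosen with earlier results known. Of 12 measured chemokine receptors outside the members, ACKR3 (CXCR7), the atypical receptor that takes up CXCL12, rose in the lines together without the wide arrays, by 0.36 (SE 0.090, limma adjusted p = 0.0443), and 0 fell. It was 0.75 in SKMM1 (adjusted p = 0.0211), where CCR4, the receptor of CCL17 and CCL22, also rose, by 1.63 (SE 0.46, adjusted p = 0.0471), and ACKR3 was 0.17 in H929 and 0.17 in KMS12. In SKMM1 4.98% of features were called, and the share of genes called over all the lists was not above this. The SKMM1 call was lost for ACKR3 in 2 of 7 fits that left out 1 course, without SKMM1 repeat 3 or KMS12 with shCasp10-3 (highest adjusted p = 0.351), and for CCR4 in 5 of 7, all but those without SKMM1 repeat 1 or KMS12 with shCasp10-2 (highest adjusted p = 0.636). With repeat 3 turned they were -0.34 and -0.72 in SKMM1. In the lines together ACKR3 was -0.04 with all arrays, passed in 1 of the 7 fits that left out 1 course, that without SKMM1 repeat 1 (highest adjusted p of the others 0.317), and was 0.00 with the sign of SKMM1 repeat 3 turned. In SKMM1 without the wide arrays 11 of the 12 receptors were above 0 with a median of 0.61, beside 60.5% of all features and a median of 0.14. With all arrays 3 of the 12 were above 0 with a median of -0.36, beside 29.6% of all features and a median of -0.21.

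Of 10 measured genes of receptor desensitisation and G protein regulation, 1 fell and 0 rose. GRK6, a kinase that phosphorylates CXCR4 and other receptors after they bind their ligand, fell by 0.60 (SE 0.12, limma adjusted p = 0.0259), with -0.70 in SKMM1, -0.42 in H929 and -0.68 in KMS12. It was -0.50 with all arrays (adjusted p = 0.679), below 0 in each of the fits that left out 1 course, and past the threshold without SKMM1 repeat 3 or H929 repeat 2 but not without any of the other 5 courses (highest adjusted p = 0.246). RGS16, which speeds the inactivation of G alpha subunits, was -0.27 (SE 0.099, adjusted p = 0.156) and RGS10 0.07. The 2 called genes were the only ones over all the lists in the lines together, a share near the background of 1.71% of features.

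In the other lists 0 genes passed in the lines together. Of 17 integrin subunits 9 were above 0 and 8 below, with ITGAE, the alpha partner of ITGB7, at -0.11 (SE 0.068, adjusted p = 0.421), ITGA5 at 0.11 and ITGAX at 0.30. Of 13 immunoglobulin and selectin adhesion molecules 9 were below 0, among them ICAM3 at -0.26 (SE 0.075, adjusted p = 0.0712), SELPLG, the ligand of P-selectin, at -0.26 (SE 0.12) and ICAM2 at -0.14. Of 13 ligands 8 were above 0, with CCL21, a ligand of CCR7, at 0.26 (SE 0.097, adjusted p = 0.163), SPP1 at 0.55 (SE 0.22) and CD6, the partner of ALCAM, at -0.75 (SE 0.30). Of 15 adaptors of integrin activation 6 were above 0 and 9 below, with the integrin-linked kinase ILK at -0.20 (SE 0.073, adjusted p = 0.16), SKAP1 at -0.20 and ZYX at -0.43. Of 8 transcription factors 3 were above 0 and 5 below, with RELA at -0.25 (SE 0.10, adjusted p = 0.201), FOXO1, an activator of S1PR1 and CCR7 expression in lymphocytes, at -0.20 and MAF, an activator of ITGB7 in myeloma, at -0.09. The sphingosine 1-phosphate list had 2 measured genes, SGPP1, a sphingosine 1-phosphate phosphatase, at 0.80 (SE 0.52) and ASAH1 at 0.07, and SGPP1 rose by 3.42 in SKMM1 (SE 0.93, adjusted p = 0.0435, 1 probe, with 4.98% of features called). SGPP1 passed there in 2 of 7 fits that left out 1 course, those without SKMM1 repeat 1 or KMS12 with shCasp10-2 (highest adjusted p of the others 0.562), and was -1.28 with SKMM1 repeat 3 turned.

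Over the 21 myeloma arrays that are not wide, each centred on its median, the 36 pairs of members correlated between -0.754 for CCR7 with ITGB1 and 0.675 for ALCAM with CCR7, with a median of 0.05. These points share lines, courses and arrays, so the values are descriptions. The integrin partners were weakly related, with r = 0.372 for ITGA4 with ITGB7 and 0.083 for ITGA4 with ITGB1. Among 4603 other named genes the pattern of CCR7 was most like that of CCL20 (r = 0.972) and MAPK4 (r = 0.948), and that of ALCAM most like IL1R2 (r = 0.904) and PMEL (r = 0.902). ITGA4 was most like CXCL12 (r = 0.834) and SDC4 (r = 0.824), ITGB1 like FMR1 (r = 0.840) and POLD3 (r = 0.838), and ITGB7 like ETV4 (r = 0.799) and SH3KBP1 (r = 0.789). CD44 was most like GLB1L (r = 0.809) and ANK3 (r = 0.738), ICAM1 like CSF2RB (r = 0.775) and S100A4 (r = 0.746), S1PR1 like CECR7 (r = 0.754) and WASH5P (r = 0.748), and CXCR4 like UBE2C (r = 0.616) and KCNA3 (r = 0.614). Spread differed as well: the SD over these arrays was 1.05 for CCR7, 0.815 for S1PR1 and 0.814 for ALCAM, and between 0.247 and 0.43 for the other 6, where the median over all features was 0.416.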

How the data were processed

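The table deposited by the authors holds processed log ratios of 15246 probes for 40 arrays, with 0 missing values, taken here as log2 from their largest size, 15.2. Background correction and normalisation were not given in the sources used here, nor were the log base and the ratio's direction. Signal over background is unknown, and array number limits the precision.

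Probes were named by the platform annotation, which is old: 10169 had 1 symbol, 4 several and 5073 were unlisted. Gene means and unnamed probes made 9681 features. In the fit of course means the replicate was the time course (8 myeloma courses, 6 residual degrees of freedom). In the fit without the wide arrays the unit was the single array (22 arrays, 17 residual degrees of freedom). There 1 consensus correlation of 0.28 linked the days of a course, so days add to the degrees of freedom. The slope without the wide arrays had course as a fixed effect and took arrays within a course as independent. Days 1 and 5 of SKMM1 and of H929 with shCasp10-2 entered no test. The SKMM1 day 5 arrays are labelled repeat 1 and repeat 2 but were not placed in those courses, and the others carry no repeat number. On day 5 repeat 1 was wide with a median of -0.44, and repeat 2 was not wide, with a median of 0.145. On days 2 to 4 the medians were above 0 in repeat 1 and below 0 in repeat 2. limma 3.58.1 (R 4.3.3; lmFit, eBayes, duplicateCorrelation) was fitted on all features, with Benjamini-Hochberg adjustment at 0.05, and tested on simulated data. Lines were weighted equally. The members, lists and the threshold for wide arrays were chosen with earlier results of these data known. Genes named are the members, CASP10, the 3 smallest p of each list, the 2 likest genes of each member, and list genes called in a line (CCR4, SGPP1), chosen after their values were seen. Repeat numbers of SKMM1 and H929 did not pair the samples.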

Additional observations from a re-analysis of the deposited data

Results flagged for a closer look

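In 27 sets of course means or control-shRNA arrays, 4 had a value far from the rest by Dixon's test, where chance flags about 1 in 20. CD44 averaged 0.492 in H929 repeat 2 of shCasp10-2 without the wide arrays, above the next course at 0.171 (7 courses), and its probe 28684_1 there gave 0.08, 6.11 and 0.01 for days 2, 3 and 4. ICAM1 averaged 0.415 in SKMM1 repeat 3, above the next course at -0.0772 (7 courses). Against the control shRNA, ITGB1 was 0.294 on day 1, where the next day was -0.176, and ITGB7 was 0.0767 on day 4, where the next was -0.597 (4 arrays each).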

How the results depend on the processing

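All p-values here are limma's, and in no gene-mean fit as designed did a member pass. Of the comparisons' values and counts 160 stayed within their limits under the alternatives and 6 moved, and of single genes and probes 761 kept direction and side of the threshold, 33 lost a call, 6 gained one and 84 turned sign. Of those 84, 49 had a reported value within 0.1 of 0. The cause was not tested. In the myeloma lines without the wide arrays 166 features passed, beside 337 with centred arrays, 266 with medians over probes, 2594 with the threshold for wide arrays at 5% and 0 with SKMM1 repeat 3 turned; leaving out a course gave 1 to 248, with 1 without H929 repeat 1 of shCasp10-2 or KMS12 with shCasp10-2, 2 without KMS12 with shCasp10-3 and 32 without H929 with shCasp10-3. Members called were 2 with the threshold for wide arrays at 5% (ITGA4 0.16, ITGB7 -0.28), 1 with each probe fitted by itself, 1 in SKMM1 with centred arrays (ITGB7 -0.74, with 789 features called), and 0 to 2 in SKMM1 minus KMS12 when a course was left out (0 to 1018 features). Leaving out a course gave 16 to 1055 features in SKMM1. Against shCtrl, ITGB1 was -0.235 with centred arrays and -0.20 without. With SKMM1 repeat 3 turned, GRK6 was -0.45 and the called ITGB7 probe -0.22, neither past the threshold.

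With all arrays, the myeloma values that turned sign were S1PR1 0.15, CCR7 0.19, ITGA4 0.12, CD44 0.092 and ACKR3 0.37 in course means without the wide arrays, S1PR1 0.093, ITGA4 0.068, CD44 0.066 and ACKR3 0.11 on days 3 and 4 only, ITGA4 0.029, CD44 0.034 and ACKR3 0.11 with arrays scaled to 1 spread, ITGA4 0.0034, CD44 0.015 and ACKR3 0.054 with centred arrays, ITGA4 0.047 with medians over probes, and S1PR1 0.18, ITGA4 0.091 and ACKR3 0.44 with SKMM1 repeat 2 turned. When the wide arrays were left out they were CXCR4 0.017 and CD44 -0.0066 with medians over probes, CCR7 -0.40 and ACKR3 -0.0031 with SKMM1 repeat 3 turned, and ALCAM 0.0053 and CXCR4 0.0022 at 5%. By line, centred arrays gave CXCR4 -0.023, ITGB1 -0.028 and ICAM1 -0.0041 in SKMM1, CXCR4 0.056 and ITGB7 0.0069 in KMS12, ITGB1 -0.063 in SKMM1 minus H929, CXCR4 -0.079 in SKMM1 minus KMS12 and ICAM1 -0.027 in H929 minus KMS12. SKMM1 repeat 3 turned gave ALCAM -0.095, CCR7 -0.48, CD44 0.0053, ICAM1 -0.27, ACKR3 -0.34, CCR4 -0.72 and SGPP1 -1.28 in SKMM1, CCR7 -0.59, ITGB7 0.29 and ICAM1 -0.039 in SKMM1 minus H929, and ITGB7 0.0199 and ICAM1 -0.037 in SKMM1 minus KMS12. Single arrays without the wide ones gave hairpin differences of ITGA4 0.12, ITGB1 0.071, ITGB7 0.0077 and CD44 0.011, slopes of S1PR1 -0.044, CXCR4 -0.026, ITGB1 -0.0014 and ICAM1 -0.11, and a myeloma minus lymphoma difference of ITGA4 0.015. Centred arrays gave a slope of ITGB1 -0.045 and a myeloma minus lymphoma difference of CXCR4 0.022.

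Leaving out 1 course turned these signs. The myeloma range with all arrays was -0.38 to 0.34 for ACKR3, -0.19 to 0.0041 for CD44, -0.16 to 0.024 for ITGA4, -0.037 to 0.0904 for ITGB1 and -0.51 to 0.074 for S1PR1; without the wide arrays it was -0.37 to 0.10 for ALCAM, -0.047 to 0.42 for CCR7 and -0.16 to 0.46 for S1PR1. In H929 the range was -0.35 to 0.64 for CCR7, -0.14 to 0.067 for ITGA4, -0.10 to 0.23 for ITGB1 and -0.027 to 0.33 for S1PR1. In KMS12 it was -0.018 to 0.14 for CD44, -0.059 to 0.065 for CXCR4 and -0.12 to 0.033 for ITGB7. In SKMM1 it was -0.14 to 0.42 for ICAM1, -0.11 to 0.24 for ITGB1 and -0.24 to 1.62 for S1PR1. SKMM1 minus H929 ran between -0.15 and 0.22 for ITGB1 and between -0.38 and 1.48 for S1PR1, and H929 minus KMS12 between -0.011 and 1.40 for ALCAM and between -0.096 and 0.0901 for ICAM1. A replicate block on the repeat numbers of SKMM1 and H929 gave 0 members and 0 features, as did no block; deviations of same-numbered repeats had r = -0.603, and the crossed pairing also gave 0 members.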
